A study of Rattus norvegicus with 20 samples.

Results

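Expression of 9 genes of microglia, complement and antigen presentation was followed in the subiculum of the rat, through which much of the hippocampal output leaves, in its dorsal and its ventral part. The genes were listed by name, with earlier results of these data known, and were looked up by Ensembl gene ID. Counts of the 9 set beside the share of all genes are therefore descriptive. All 9 were among the 32883 IDs of the table. They were Cd74 (ENSRNOG00000018735), RT1-Da (ENSRNOG00000032844) and B2m (ENSRNOG00000017123) for antigen presentation, Aif1 (ENSRNOG00000000853), Tyrobp (ENSRNOG00000020845) and Cd68 (ENSRNOG00000037563) for microglia and phagocytes, and C1qa (ENSRNOG00000012807), C1qb (ENSRNOG00000012804) and C3 (ENSRNOG00000046834) for complement. The symbols came with the list of IDs and were not checked against an annotation, because 0 of the table's IDs matched the rat gene table used here.

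RNA came from wild-type Wistar rats aged 3 months. In 4 groups of 5 libraries, the dorsal or the ventral subiculum was laser-microdissected from frozen sections, either from controls or 24 hours after preconditioning, the labels' word for the treatment. From the series title, this treatment was acute seizures evoked by electric stimulation of the fibres that bring entorhinal input to the hippocampus (the perforant pathway). The labels give no further treatment of the controls, and do not say which libraries came from the same animal.

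Microglia are the resident macrophages of the brain. MHC class II molecules such as the one that contains the RT1-Da alpha chain present peptides from ingested material to T helper cells, and Cd74, the invariant chain, guides their assembly and blocks their groove until the peptide is loaded. MHC class I molecules, found on most cells, need the light chain B2m to reach the surface. C1q, built from A, B and C chains and made in the brain mainly by microglia, starts the classical complement cascade, in which C3 is the central component that is cleaved and deposited on targets. In the brain C3 is also known from reactive astrocytes, so C3 mRNA in tissue is not specific to microglia.

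The promoters of the antigen presentation genes are shown because Cd74 and RT1-Da had the largest fitted changes after preconditioning while B2m had one of the smallest. Promoter windows of 300 bases, from 250 before to 50 after the transcription start, were taken from RefSeq on the GRCr8 assembly, where 7 of the 9 genes had an entry (no entry for Aif1 and Tyrobp). Cd74 is at chr18:56526956-56527255, RT1-Da at chr20:4515165-4515464 and B2m at chr3:129549080-129549379, all on the plus strand. Capitals mark matches, on either strand, to the Y box letters ATTGG (an inverted CCAAT box) and to 2 spellings of the X box. The X box is an element of MHC class II promoters, though not stated here to be confined to them, that is bound by the RFX complex.
Cd74: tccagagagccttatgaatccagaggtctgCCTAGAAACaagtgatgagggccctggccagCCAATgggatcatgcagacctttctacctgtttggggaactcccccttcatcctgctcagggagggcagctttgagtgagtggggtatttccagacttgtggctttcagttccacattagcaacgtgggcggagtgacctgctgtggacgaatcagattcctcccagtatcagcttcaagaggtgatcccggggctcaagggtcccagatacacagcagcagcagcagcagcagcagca
RT1-Da: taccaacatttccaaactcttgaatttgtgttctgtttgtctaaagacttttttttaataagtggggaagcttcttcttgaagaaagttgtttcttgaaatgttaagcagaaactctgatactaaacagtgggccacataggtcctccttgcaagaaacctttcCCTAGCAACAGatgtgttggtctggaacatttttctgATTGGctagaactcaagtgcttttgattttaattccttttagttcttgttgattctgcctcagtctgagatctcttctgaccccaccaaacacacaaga
B2m: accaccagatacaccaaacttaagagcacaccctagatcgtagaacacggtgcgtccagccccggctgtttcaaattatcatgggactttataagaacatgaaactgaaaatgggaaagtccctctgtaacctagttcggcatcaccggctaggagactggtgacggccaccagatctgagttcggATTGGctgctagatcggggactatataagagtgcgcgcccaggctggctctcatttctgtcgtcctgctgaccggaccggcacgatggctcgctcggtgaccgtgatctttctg
The general X box core was found in RT1-Da, starting 86 bases before the transcription start, and in 5.26% of 33469 rat promoters. A closer spelling, CCTAGNAAC, was chosen after these promoters had been read. It was found in RT1-Da at the same place, where it overlaps the general core, in Cd74 220 bases before the start, and in 1.54% of all promoters. ATTGG was found in all 3 promoters shown and in that of Cd68, against 37.5% of all promoters. Among the 7 promoters searched, the core of an interferon-stimulated response element was found in B2m, 150 bases before the start, against 3.92% of all promoters. A general NF-kB site was found in B2m, C1qb, C3 and Cd74, against 19.3%. GAGGAA, the core bound by PU.1, was found in C1qb, Cd68 and Cd74, against 27.6%, and the CRE core TGACGT in none of the 7, against 7.94%. Both strands were searched in each case, and a match describes letters only. The lack of a match, as for the X box spellings in B2m, does not show that the element is absent.

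Totals ranged from 3087146 to 20463678 counts per library. Every library had counts of all 9 genes. The fewest were 2 of RT1-Da, in ventral control 1 and ventral control 3, and 4 of Cd68, in dorsal control 2. Values are CPM (counts per 1000000 counts of the genes past the filter), scaled by TMM over all 20 libraries, and are listed in the order of libraries 1 to 5. Across all genes past the filter, 3 libraries, each the farthest from the others of its own group, were taken to stand apart. The median root mean square log2 difference to those others was 0.697 for dorsal control 4 (0.447 to 0.529 for the other dorsal controls), 0.662 for ventral control 2 (others 0.488 to 0.546) and 0.535 for dorsal preconditioning 2 (others 0.413 to 0.459). No cutoff was set for this choice. Ventral control 1, at 0.546, was farther from its group than dorsal preconditioning 2 and was not among the 3. Dorsal control 4 was the highest dorsal control for Cd74, RT1-Da, Aif1, Tyrobp and, by a small margin, C3, ventral control 2 the highest ventral control for B2m, Aif1, Tyrobp and C3, and dorsal preconditioning 2 the highest of its group for B2m, Aif1, Tyrobp and C1qb. Values with and without them are given where a result rests on them. Fold changes are from edgeR's quasi-likelihood test, fitted on all genes that passed a filter on low counts. A gene is said to have risen, fallen or differed where its Benjamini-Hochberg adjusted p over all those genes was under 0.05. Intervals are 95% confidence intervals of a single log2 fold change, not adjusted for the number of genes.

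**Figure D1:**
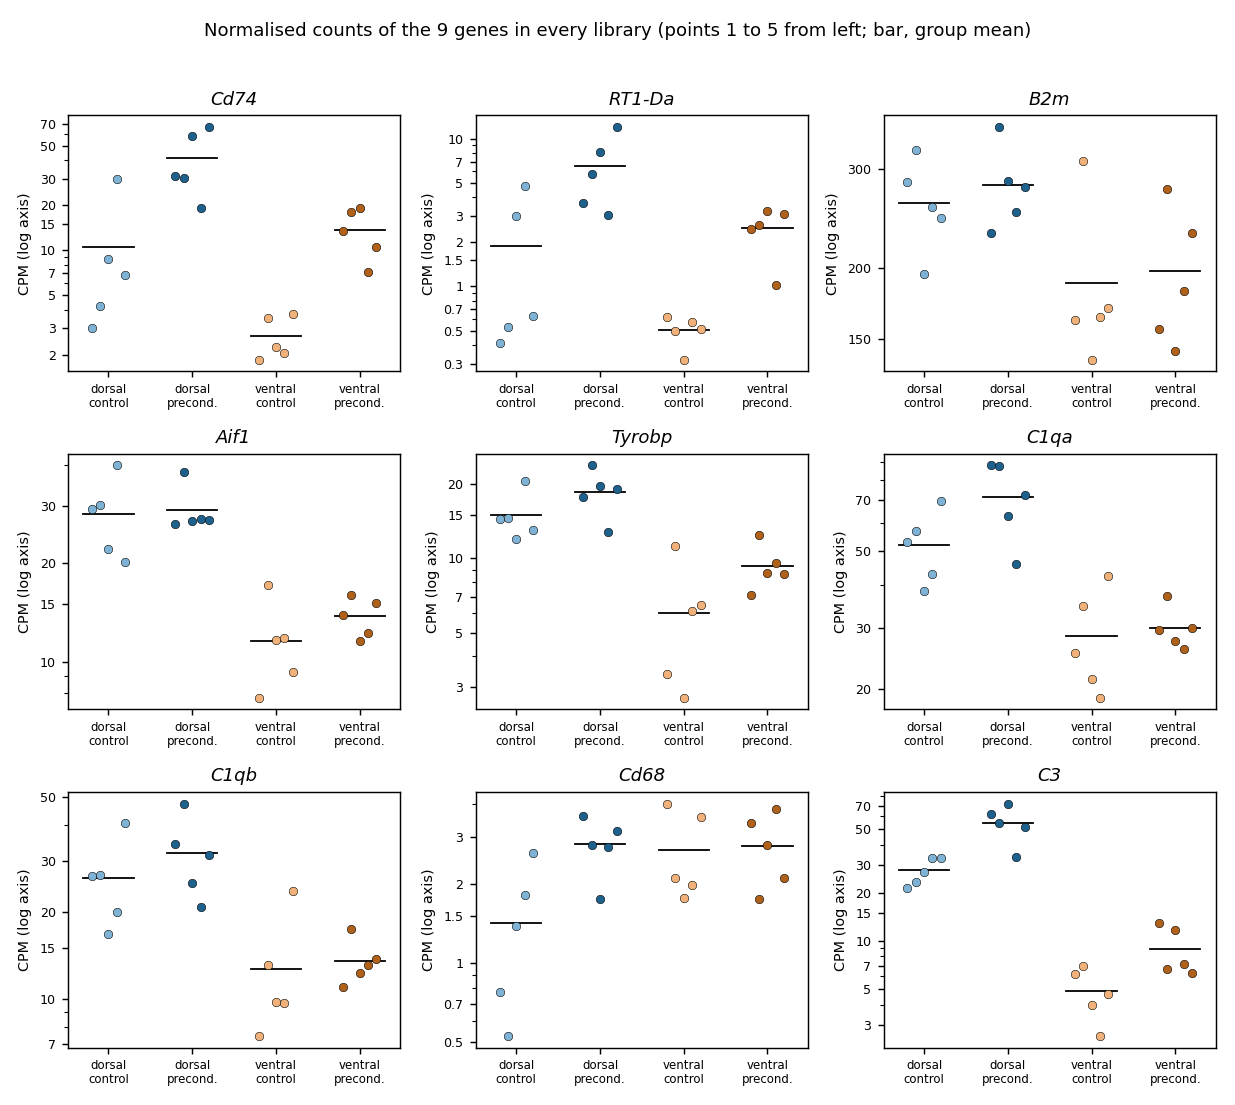
CPM of each gene on a log axis, 1 panel per gene, with 1 point per library (5 per group, numbers 1 to 5 from left to right) and a bar at the group mean. Cd74 in the 5 ventral preconditioned libraries lies between 7.15 and 19.3 CPM, above all ventral controls (1.86 to 3.76), while Aif1 overlaps between control and preconditioning in both regions.

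In the ventral subiculum Cd74, of the MHC class II genes, rose with preconditioning. RT1-Da was called too, but its direction was fixed by the low-count filter, as described below. Cd74 measured 1.86, 3.5, 2.24, 2.07 and 3.76 CPM in the ventral controls and 13.4, 18.0, 19.3, 7.15 and 10.6 CPM after preconditioning. No preconditioned library came down to the level of a control, and the lowest of them, library 4, was still above the highest control. The group means were 2.68 ± 0.877 and 13.7 ± 5.06 CPM (SD, n = 5 each), a 4.94-fold rise or 2.30 on the log2 scale (SE 0.29, interval 1.68 to 2.93, adjusted p = 0.000380). RT1-Da, which pairs with a beta chain to form the class II molecule, measured 0.619, 0.500, 0.320, 0.577 and 0.512 CPM in controls and 2.45, 2.61, 3.25, 1.02 and 3.07 CPM after preconditioning. Here too the groups did not overlap, and library 4 was again the lowest of the preconditioned group. The control values rested on 2 to 12 counts and the preconditioned ones on 8 to 57. Its log2 fold change was 2.28 (SE 0.35, interval 1.52 to 3.03, adjusted p = 0.00146), a 4.85-fold rise. RT1-Da passed the low-count filter through the 5 preconditioned libraries alone, so only genes high there could have been tested at its level.

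All 9 genes passed the filter in the ventral comparison and 2 were called, both higher, where 5.06% of all 13291 genes tested were called and 2.93% were called higher. Of the 2, RT1-Da was tested only because its preconditioned libraries passed the filter, so its direction was fixed by that filter. That leaves Cd74, from a list chosen with earlier results known, so these shares are given for description only. Groups without overlap, with preconditioning higher, were seen for the same 2 genes, RT1-Da again with that limit, and for 3.82% of all genes. The median log2 fold change of the 9 was 0.23, against -0.011 over all genes tested.

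The dorsal subiculum showed estimates of similar size for Cd74 and RT1-Da that did not pass the threshold. Cd74 measured 3.04, 4.22, 8.72, 30.1 and 6.79 CPM in dorsal controls and 31.3, 30.2, 58.5, 19.3 and 66.5 CPM after preconditioning. Dorsal control 4 stood in the range of the preconditioned libraries, and the other controls lay below all of them. The means were 10.6 ± 11.1 and 41.2 ± 20.2 CPM (SD, n = 5 each), and the estimate was 1.98 on the log2 scale (SE 0.53, interval 0.84 to 3.13, adjusted p = 0.207). Without dorsal control 4 the estimate was 2.84 and the adjusted p 0.0118. With dorsal preconditioning 2 left out as well it was 2.93 and 0.0526. Over 18 alternative fits the adjusted p ranged from 0.0118 to 0.528. RT1-Da measured 0.413, 0.527, 2.98, 4.77 and 0.635 CPM in dorsal controls and 3.69, 5.76, 8.17, 3.03 and 12 CPM after preconditioning. Dorsal controls 3 and 4 were apart from the other controls and dorsal control 4 overlapped the preconditioned range. The log2 fold change of RT1-Da was 1.84 (SE 0.60, interval 0.55 to 3.13, adjusted p = 0.333). Without dorsal control 4 it was 2.49 (adjusted p = 0.132), and with dorsal preconditioning 2 left out as well 2.52 (adjusted p = 0.197). With limma-voom, which gives less weight to libraries far from their group, RT1-Da was called (2.99, adjusted p = 0.0407), and over 17 alternative fits its adjusted p ranged from 0.0407 to 0.623.

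In the dorsal comparison all 9 genes passed the filter and 0 were called by edgeR, where 0.271% of 13647 genes were called. At an unadjusted p under 0.05 there were 5 of the 9 (Cd74, RT1-Da, C1qa, Cd68 and C3) and 1107 of all genes. Of these 5, RT1-Da had 2 and Cd68 had 3 dorsal controls above the filter's cutoff, against 5 preconditioned libraries each. Both thus passed the filter through the group where they were higher, and do not count as support. DESeq2 called 1 of the 9, C3, and 167 of 20612 genes. The median log2 fold change of the 9 was 0.45, against -0.0073 over all genes.

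The difference between the regions in the response of the class II genes was tested directly as an interaction over all 20 libraries. It was 0.32 for Cd74 (interval -1.09 to 1.74, adjusted p = 0.961) and 0.44 for RT1-Da (interval -1.22 to 2.09, adjusted p = 0.954), positive values meaning a larger rise in the ventral region. Without dorsal control 4 these estimates turned to -0.53 and -0.20. A larger ventral response was therefore not shown, and the intervals leave room for differences of more than 1 log2 unit in either direction.

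B2m, the light chain of class I, did not follow the class II genes. It measured 162, 310, 138, 164 and 170 CPM in ventral controls and 156, 276, 142, 183 and 231 CPM after preconditioning. The ranges covered each other, and library 2 was the highest in both groups. The log2 fold change was 0.061 in the ventral region (SE 0.23, interval -0.43 to 0.56, adjusted p = 0.934) and 0.095 in the dorsal region (SE 0.14, interval -0.21 to 0.40, adjusted p = 0.922), where the group means were 261 ± 47.7 and 280 ± 47.2 CPM (SD, n = 5 each).

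The microglial genes Aif1 and Tyrobp gave small estimates. Aif1 encodes Iba1, the calcium-binding protein by which microglia are commonly stained. It measured 29.3, 30.1, 22.2, 39.9 and 20.2 CPM in dorsal controls and 26.4, 38.1, 27, 27.4 and 27 CPM after preconditioning. The highest library of each group, dorsal control 4 and dorsal preconditioning 2, reached nearly the same value, and the ranges overlapped almost fully. The log2 fold change of Aif1 was 0.042 in the dorsal region (SE 0.18, interval -0.33 to 0.42, adjusted p = 0.977). In the ventral region Aif1 measured 7.74, 17.1, 11.7, 11.8 and 9.31 CPM in controls and 13.9, 16.0, 11.5, 12.2 and 15.1 CPM after preconditioning, and the log2 estimate was 0.23 (SE 0.19, interval -0.18 to 0.65, adjusted p = 0.589).

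Tyrobp, the adaptor that carries signals from TREM2 and other microglial receptors, measured 3.41, 11.2, 2.72, 6.11 and 6.49 CPM in ventral controls and 7.12, 12.5, 8.74, 9.57 and 8.68 CPM after preconditioning. All controls but ventral control 2 lay below the preconditioned range. The log2 fold change was 0.57 (SE 0.30, interval -0.072 to 1.21, adjusted p = 0.352). Without ventral control 2 it was 0.91 with an adjusted p of 0.0379 (range 0.0379 to 0.568 over 18 alternative fits). In the dorsal region the means of Tyrobp were 14.9 ± 3.33 and 18.7 ± 3.98 CPM (SD, n = 5 each), and the log2 estimate was 0.32 (SE 0.18, adjusted p = 0.717). Cd68, a lysosomal glycoprotein of phagocytes, was the sparsest of the microglial genes, with 4 to 42 counts per library. It measured 0.774, 0.527, 1.38, 1.80 and 2.60 CPM in dorsal controls and 3.60, 2.80, 1.75, 2.77 and 3.18 CPM after preconditioning. The groups overlapped, with dorsal controls 4 and 5 above the lowest preconditioned library. Its log2 fold change was 0.97 in the dorsal region (SE 0.36, interval 0.20 to 1.74, adjusted p = 0.450) and 0.066 in the ventral region (SE 0.30, interval -0.58 to 0.71, adjusted p = 0.946). The interaction of Cd68, -0.91 (interval -1.91 to 0.096), had an adjusted p of 0.792.

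Of the complement genes, C3 had the largest estimates after preconditioning. In dorsal controls C3 measured 21.5, 23.2, 27, 33.1 and 33.1 CPM and after preconditioning 62.1, 54.4, 72.2, 33.3 and 51.6 CPM. The groups did not overlap, though dorsal preconditioning 4 lay just above the highest controls. Groups without overlap in this direction were seen for 1.13% of all genes in the dorsal comparison, and C3 was the only one of the 9. The means were 27.6 ± 5.41 and 54.7 ± 14.4 CPM (SD, n = 5 each), and the log2 estimate was 0.98 (SE 0.19, interval 0.57 to 1.39) and an adjusted p of 0.0549. Over 18 alternative fits that adjusted p ranged from 0.000392 to 0.161 and passed the threshold in 6, among them the fit without dorsal preconditioning 4, at 0.0122. Ventral C3 measured 6.19, 7.0, 4.0, 2.55 and 4.70 CPM in controls and 13, 6.66, 11.7, 7.15 and 6.31 CPM after preconditioning. Libraries 2 and 5 of the preconditioned group lay within the control range. The log2 fold change was 0.90 (SE 0.29, interval 0.27 to 1.54, adjusted p = 0.103), and without ventral control 2 it was 1.14 with an adjusted p of 0.0276 (range 0.00807 to 0.232 over 18 alternative fits). The interaction of C3 was -0.066 (interval -0.83 to 0.70, adjusted p = 0.986).

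C1qa and C1qb encode chains of the same molecule and kept a similar proportion throughout. The ratio of C1qa to C1qb counts averaged 2.05 ± 0.216, 2.27 ± 0.279, 2.40 ± 0.656 and 2.25 ± 0.273 (SD, n = 5 each) in dorsal control, dorsal preconditioned, ventral control and ventral preconditioned libraries. The highest ratio, 3.42, was that of ventral control 1, which had 24 counts of C1qb. C1qa measured 53.1, 56.8, 38.2, 42.9 and 69.5 CPM in dorsal controls and 88.1, 87.8, 62.8, 45.8 and 72.2 CPM after preconditioning. Libraries 1, 2 and 5 of the preconditioned group were above all controls, and libraries 3 and 4 were not. The log2 fold change was 0.45 for C1qa (SE 0.19, interval 0.031 to 0.86, adjusted p = 0.568) and 0.28 for C1qb (SE 0.25, adjusted p = 0.843) in the dorsal region. In the ventral region the estimates were 0.073 (SE 0.20, interval -0.36 to 0.51) for C1qa and 0.054 (SE 0.26, interval -0.50 to 0.61) for C1qb, with adjusted p of 0.903 and 0.949.

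**Figure D2:**
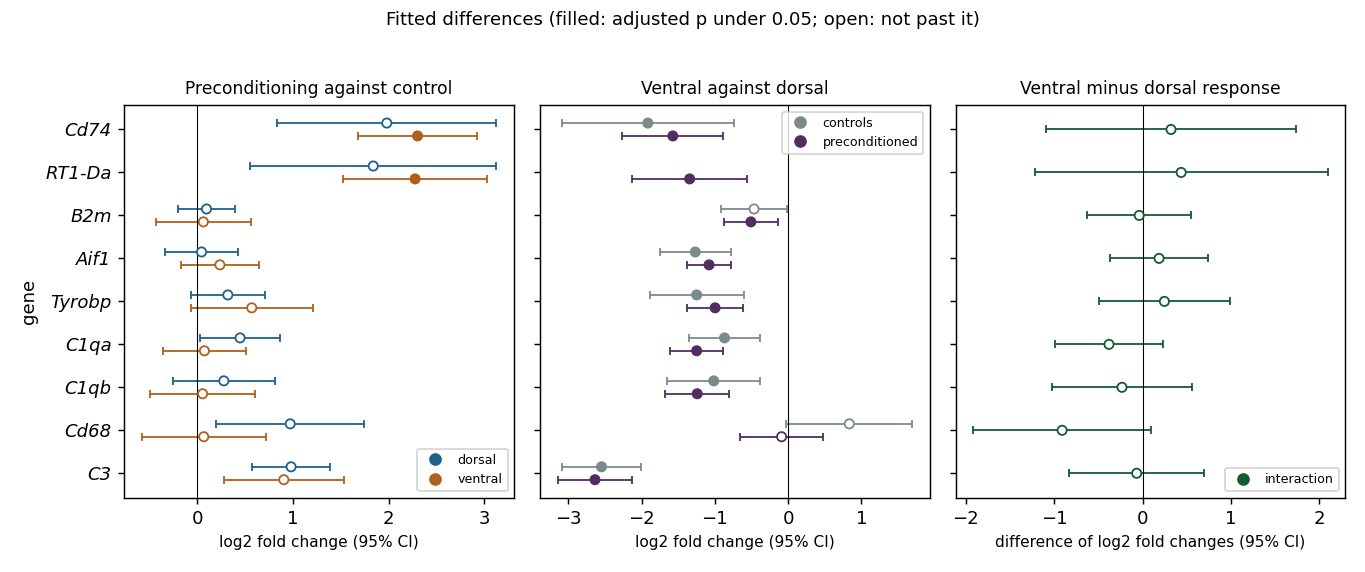
Fitted log2 differences with 95% confidence intervals for the 9 genes: preconditioning against control by region (left), ventral against dorsal by condition (middle) and the difference between the regional responses (right). Filled points passed an adjusted p of 0.05. On the left these are Cd74 (2.30) and RT1-Da (2.28) in the ventral region, and on the right there are none. RT1-Da has no point for controls in the middle panel, as it did not pass the filter there.

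Counts were also set against Aif1 within each library, which does not depend on how the libraries were scaled. The size of such a ratio depends on the length of both transcripts, so only its change between libraries is described. Counts of Cd74 per count of Aif1 were 0.240, 0.205, 0.192, 0.175 and 0.404 in ventral controls and 0.962, 1.12, 1.67, 0.583 and 0.698 after preconditioning, with no overlap. In the dorsal region they were 0.104, 0.140, 0.393, 0.755 and 0.335 in controls and 1.19, 0.792, 2.17, 0.704 and 2.46 after preconditioning. Dorsal control 4, the highest control, was above dorsal preconditioning 4 only. RT1-Da per Aif1 ranged from 0.0274 to 0.0800 in ventral controls and from 0.0833 to 0.282 after preconditioning. In the dorsal region its ranges overlapped, with 0.0141 to 0.134 in controls and 0.111 to 0.443 after preconditioning. C3 per Aif1 overlapped in both regions. It ranged from 0.733 to 1.63 in dorsal controls and from 1.22 to 2.68 after preconditioning, and in the ventral region from 0.215 to 0.80 and from 0.416 to 1.01. The median of C1qa per Aif1 was 2.02 in ventral controls and 2.14 after preconditioning, within overlapping ranges of 1.60 to 4.53 and 1.98 to 2.38. These ratios were not tested.

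**Figure D3:**
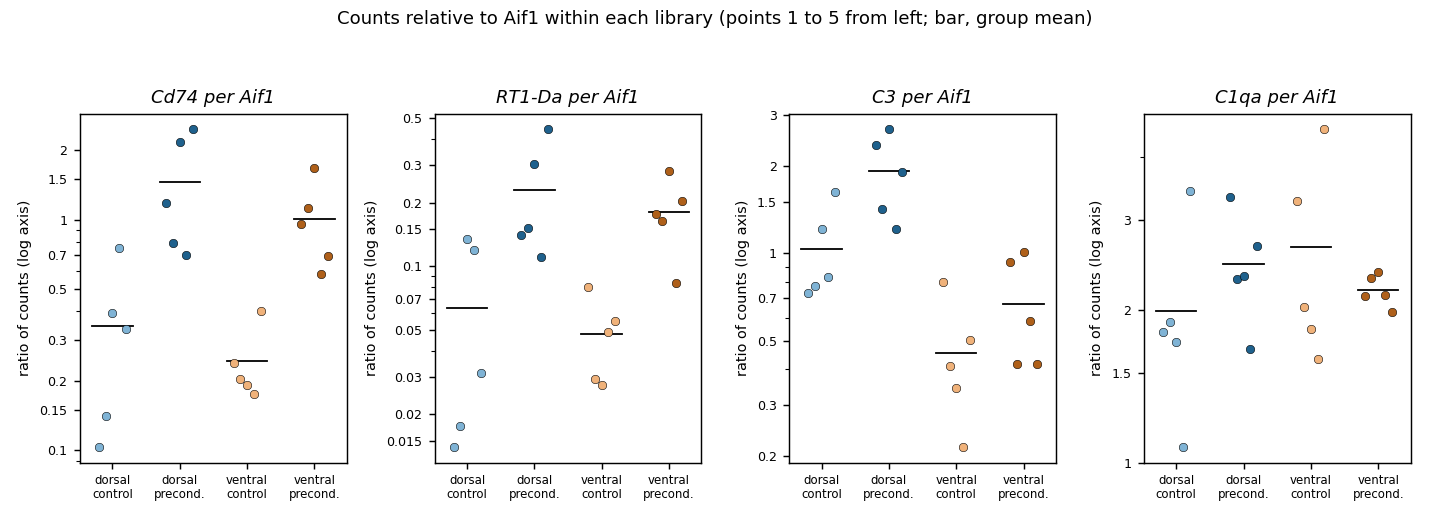
Counts of Cd74, RT1-Da, C3 and C1qa per count of Aif1 in the same library, on log axes, with 1 point per library (numbers 1 to 5 from left to right) and a bar at the group mean. For Cd74 the ventral preconditioned libraries (0.583 to 1.67) lie above the ventral controls (0.175 to 0.404), while for C1qa the groups overlap.

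The dorsal and ventral subiculum were then compared within each condition. In controls 6 of the 8 genes that passed the filter were called, all lower in the ventral than in the dorsal subiculum, where 25.7% of 13509 genes were called and 14.5% were called lower. This fit left out the pairing of same-numbered control libraries that is described below. With the library number as a block, 7 of the 8 genes and 4917 of the 13509 were called. The dorsal controls averaged 28.3 ± 7.76 CPM of Aif1 and the ventral ones 11.5 ± 3.55 CPM (SD, n = 5 each), a log2 difference of -1.27 (SE 0.23, adjusted p = 0.000893). The ranges, 20.2 to 39.9 and 7.74 to 17.1 CPM, did not overlap. Tyrobp averaged 14.9 ± 3.33 and 5.98 ± 3.35 CPM, without overlap and with a log2 difference of -1.25 (SE 0.30, adjusted p = 0.00697). In tissue samples such as these, fewer microglia and less RNA of these genes per cell cannot be told apart. Levels of other microglial, astrocytic, neuronal or vascular markers beside these genes were not analysed, as their IDs could not be tied to names.

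The complement genes were lower in the ventral controls as well. The dorsal controls averaged 27.6 ± 5.41 CPM of C3 and the ventral ones 4.89 ± 1.77 CPM (SD, n = 5 each). It was 5.84-fold lower in the ventral region, with a log2 difference of -2.55 (SE 0.25, adjusted p = 7.06e-06), and the lowest dorsal value, 21.5 CPM, was above the highest ventral value, 7.0 CPM. C1qa averaged 52.1 ± 12.3 and 28.5 ± 9.70 CPM, with a log2 difference of -0.87 (SE 0.22, adjusted p = 0.0110). For C1qb the log2 difference was -1.01 (SE 0.30, adjusted p = 0.0215). The groups of C1qa overlapped through ventral control 5 and those of C1qb through the same library, the highest ventral control for both. The call for C1qb was lost when dorsal control 5 or any of ventral controls 1, 3 and 4 was left out, with adjusted p between 0.0523 and 0.0632. It was also lost without dorsal control 4 and ventral control 2, the libraries that stood apart (-1.09, adjusted p = 0.0527). With the library number as a block in the fit, the call for C1qb was kept (-1.05, adjusted p = 7.89e-05). Aif1, Tyrobp and C3 were the 3 of the 9 genes whose groups did not overlap, against 10.3% of all genes in this direction.

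Cd74 was 3.77-fold lower in ventral than in dorsal controls, with a log2 difference of -1.91 (SE 0.55, interval -3.08 to -0.74, adjusted p = 0.0187). This estimate leaned on dorsal control 4, at 30.1 CPM, and without it the difference was -1.05 with an adjusted p of 0.0306. Without ventral control 4 it was -1.79 with an adjusted p of 0.0505, and over 18 alternative fits the adjusted p ranged from 0.00696 to 0.0692. RT1-Da was too low in controls to pass the filter. With every gene kept that had at least 1 count, its log2 difference was -1.81 (SE 0.66, adjusted p = 0.0757 over 20574 genes). B2m had a log2 difference of -0.46 (SE 0.21, adjusted p = 0.119). Same-numbered dorsal and ventral controls deviated together across genes, and with the number as a block the difference of B2m was -0.51 with an adjusted p of 0.00166. Without ventral control 2 it was -0.72 with an adjusted p of 0.00154, and over 18 alternative fits the adjusted p ranged from 0.00120 to 0.255. Cd68 was the exception in direction, with a log2 difference of 0.84 (SE 0.40, interval -0.021 to 1.69) and an adjusted p of 0.144. Without dorsal control 5 it was 1.2 with an adjusted p of 0.0436 (range 0.0290 to 0.316 over 17 alternative fits). In this comparison 3 dorsal and 5 ventral controls were above the filter's cutoff for Cd68. It thus passed the filter through the ventral controls, where it was higher, so the filter leaned towards this direction.

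After preconditioning the ventral subiculum was again the lower one. All 9 genes passed the filter and 8 were called, all lower in the ventral region, where 26.7% of 13640 genes were called and 14.7% were called lower. Aif1 averaged 29.2 ± 5.02 CPM in dorsal and 13.8 ± 1.88 CPM in ventral preconditioned libraries (SD, n = 5 each), a log2 difference of -1.08 (SE 0.14, adjusted p = 5.36e-05). C3 averaged 54.7 ± 14.4 and 8.95 ± 3.12 CPM and was 6.21-fold lower in the ventral region, with a log2 difference of -2.64 (SE 0.24, adjusted p = 2.42e-06). The differences of Tyrobp, C1qa and C1qb were -1.0 (SE 0.18), -1.25 (SE 0.17) and -1.24 (SE 0.20), with adjusted p of 0.000871, 7.98e-05 and 0.000391. For Cd74, Aif1, Tyrobp, C1qa, C1qb and C3 the regions did not overlap, which held for 10.3% of all genes in this direction.

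Cd74 was lower in the ventral region after preconditioning too, with a log2 difference of -1.57 (SE 0.32, adjusted p = 0.00219). RT1-Da averaged 6.52 ± 3.65 CPM in dorsal and 2.48 ± 0.880 CPM in ventral preconditioned libraries (SD, n = 5 each), with a log2 difference of -1.34 (SE 0.37, adjusted p = 0.0139). B2m had the smallest of the called differences, -0.51 (SE 0.17, adjusted p = 0.0411). The call for B2m was lost in 10 of 18 alternative fits, 7 of them with 1 library left out, and its adjusted p ranged from 0.00143 to 0.10 over the 18. The libraries concerned were dorsal preconditioning 2, 3, 4 and 5 and ventral preconditioning 1, 3 and 4. In this comparison the fit without the libraries that stood apart left out dorsal preconditioning 2 alone. It repeats 1 of those 7 fits and is counted again in the 10 and the 18. Cd68 had a log2 difference of -0.088 (SE 0.26, interval -0.65 to 0.47, adjusted p = 0.847). Each regional comparison shares a group of libraries with each treatment comparison, so the values of the 4 comparisons are not independent of one another.

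None of the 9 genes passed the test of the interaction in edgeR, where 0.0781% of 14087 genes were called. At an unadjusted p under 0.05 there were 0 of the 9 and 948 of all genes. DESeq2 called 0 of the 9 as well, and 54 of 21713 genes. Of the 9 intervals, those of B2m (-0.62 to 0.55) and Aif1 (-0.37 to 0.74) were the narrowest and that of RT1-Da was the widest.

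The order of the group means was the same for 8 of the 9 genes at its ends, with dorsal preconditioned libraries highest and ventral controls lowest. For Cd74 and RT1-Da the ventral preconditioned mean (13.7 and 2.48 CPM) was next to that of the dorsal controls (10.6 and 1.87 CPM) and their ranges overlapped. For B2m, Aif1, Tyrobp, C1qa, C1qb and C3 both dorsal means were above both ventral means. Cd68 differed, with 2.69 ± 1.04, 2.78 ± 0.869 and 2.82 ± 0.688 CPM (SD, n = 5 each) in ventral controls, ventral preconditioned and dorsal preconditioned libraries and 1.42 ± 0.831 CPM in dorsal controls.

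Across the 20 libraries, the log2 CPM of each gene was compared with the mean standardised profile of the 9 genes. The Pearson r, to which each gene itself contributes, was between 0.733 and 0.925 for 8 of them and 0.017 for Cd68. Among 12644 other genes with a mean count of at least 20, the most alike in pattern were ENSRNOG00000019387 (r = 0.93 over 20 libraries) and ENSRNOG00000012749 (r = 0.92). ENSRNOG00000019387 averaged 8.13 ± 1.52, 10.2 ± 2.31, 4.18 ± 1.26 and 5.52 ± 1.28 CPM (SD, n = 5 each) in dorsal control, dorsal preconditioned, ventral control and ventral preconditioned libraries. ENSRNOG00000012749 averaged 47.6 ± 12.6, 58.0 ± 11.6, 19.7 ± 8.16 and 25.4 ± 4.15 CPM in the same order. The r values describe libraries that fall into 2 regions, and their names are not given in the sources used here.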

How the data were processed

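The authors deposited 1 table of raw counts per gene, with 1 column for each of the 20 libraries, and all columns were used. Per the submitters' processing notes, STAR, DESeq2 and the build Rnor_5.0 were used, with no role or version stated. Counting tool, annotation and strand setting are not given in the sources used here, so reads shared by related genes (RT1-Da belongs to a multigene family) may have been split or dropped. Per the labels' protocols, the kit was TruSeq Stranded mRNA LT. Groups and numbers came from the titles. Columns of treated libraries begin with e where titles begin with p, and were matched by number and region letter.

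Tests on the counts used R 4.3.3 and edgeR 4.0.16 (filterByExpr, TMM, glmQLFit with robust=TRUE, glmQLFTest), each comparison on its own 10 libraries and the interaction on all 20. The filter asked for about 10 counts in a library of median size in enough libraries. The method was also run on simulated counts, in 2 draws per comparison, with each gene drawn independently. These draws held no pairing and no outlying libraries, so they say nothing about how the method handles either. Standard errors are the log2 fold change divided by the square root of F. Nothing says that libraries of a group came from separate animals, so p-values measure the spread between libraries. All pairs within a group differed by more than counting noise (chi-square per degree of freedom 3.37 or more).

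The members and lists were chosen with earlier results of these data known. All 9 members are named. Pathway and marker lists set by symbol received no values, because 0 of 32883 IDs matched the RefSeq table of 47357 genes. Genes of like pattern were ranked by Pearson r of log2 CPM (prior count 2), limited to 2 because they have no names here. Alternatives were DESeq2 1.42.0, edgeR with DESeq2's size factors, a filter of only 1 count, another that asked for a mean count of 50 or more, limma-voom (limma 3.58.1), a replicate block, 1 fit of all 20 libraries, and libraries left out. Same-numbered dorsal and ventral controls deviated together across genes (r from 0.200 to 0.393 over 5 pairs), so the numbers were taken to pair them. The reported fits nevertheless had no block, also between control regions, and the block was run as an alternative. The other comparisons did not meet that criterion (every r over 0.1). Between preconditioned regions it was missed through pair 3 alone (r 0.0376, highest r 0.368). There 4 of the 5 dorsal libraries correlated best with the ventral library of their own number, so pairing there remains possible. Figures were drawn with matplotlib 3.10.9.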

Additional observations from a re-analysis of the deposited data

Results flagged for a closer look

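Of 36 groups of 5 CPM values (9 genes in 4 groups), 3 held a library far from the rest of its group by Dixon's ratio, where chance flags about 1 in 20 groups. Cd74 was 30.1 CPM in dorsal control 4, with the other dorsal controls between 3.04 and 8.72 CPM. B2m was 309.7 CPM in ventral control 2, against 138 to 170 CPM in the rest of that group. Aif1 was 38.1 CPM in dorsal preconditioning 2, with the rest of its group between 26.4 and 27.4 CPM.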

How the results depend on the processing

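For the members tested, 863 values under alternatives were compared with the reported ones. Of these, 775 kept direction and side of the threshold, 23 passed it newly, 17 no longer passed it and 48 changed sign. In the ventral and the preconditioned-region comparisons only 1 library stood apart. The fit without it is there the same as the fit with that library left out, and both are counted. Every value that changed sign had missed the threshold, and the cause was not tested. The rise of Cd74 in the ventral region passed in all 18 alternatives, with adjusted p of at most 0.00970. RT1-Da passed the low-count filter in that region only where its preconditioned libraries carried it, so its calls in those fits say little about stability. Fits without that filter were DESeq2 (log2 fold change 2.30, adjusted p = 1.20e-05) and edgeR with no filter beyond 1 count (2.28, adjusted p = 0.000796). Of the 9 genes, 0 were called in the dorsal comparison, against 1 with DESeq2, 1 with no filter, 1 with a mean count of at least 50, 2 with all 20 libraries in one fit, 3 with limma-voom and 0 to 1 with a library left out. Over all genes those settings called 167 of 20612, 55 of 20612, 38 of 11227, 97 of 14087 and 172 of 13647. It was 15 to 50 genes with a library left out and 37 of 13647 as reported. In the ventral comparison 2 were called, against 3 with DESeq2 and 3 with limma-voom, both adding C3, and 1 to 4 with a library left out. The 4 came without ventral control 2, the only library of this comparison that stood apart. With a mean count of at least 50 it was 1, as RT1-Da was no longer tested, which was also the case without ventral preconditioning 2 or 5. Over all genes, 672 of 13291 were called as reported, 1051 of 20572 with DESeq2 and 1508 of 13291 with limma-voom. The number was 583 of 10935 with a mean count of at least 50 and 432 to 1029 with a library left out. In the other comparisons the number of members called with a library left out was 4 to 7 in controls (6 reported), 7 to 8 after preconditioning and 0 for the interaction. Over all genes it was 2736 to 3941, 2917 to 3678 and 6 to 20, against 3472, 3647 and 11 reported. Between control regions the count of members without the libraries that stood apart was again 6, with B2m gained and C1qb lost. That fit called 4458 of 13736 genes.

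Sign changes without the libraries that stood apart were -0.011 for B2m in the dorsal comparison and, for the interaction, -0.50 for Cd74, -0.24 for RT1-Da, 0.34 for B2m, 0.049 for C1qb and 0.11 for C3. With limma-voom they were -0.013 for B2m (dorsal), 0.067 for Cd68 (regions after preconditioning) and, for the interaction, -0.74 for Cd74, -1.15 for RT1-Da, 0.12 for B2m, 0.081 for C1qb and 0.26 for C3. With a library left out, values spanned 0 in the dorsal comparison for B2m (-0.0048 to 0.20) and Aif1 (-0.073 to 0.20). In the ventral comparison they did so for B2m (-0.097 to 0.33), C1qa (-0.059 to 0.26), C1qb (-0.066 to 0.41) and Cd68 (-0.054 to 0.24), and between preconditioned regions for Cd68 (-0.22 to 0.049). In the interaction they did so for Cd74 (-0.53 to 0.58), RT1-Da (-0.20 to 0.80), B2m (-0.19 to 0.22), C1qb (-0.45 to 0.13) and C3 (-0.29 to 0.16).

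With the replicate number as a block, 0, 3, 7, 8 and 0 members were called in the dorsal, ventral, control-region, preconditioned-region and interaction tests. Over all genes the same fits called 26 of 13647, 1261 of 13291, 4917 of 13509, 4190 of 13640 and 62 of 14087. Without the block the numbers over all genes were 37, 672, 3472, 3647 and 11. The block added C3 in the ventral comparison (log2 fold change 0.84, adjusted p = 0.0351), where same-numbered libraries did not all deviate together (r from -0.0135 to 0.389), and B2m between control regions. It changed no other member's call. Counts over all genes moved by more than 1.5 times in the dorsal comparison (37, range 15 to 172), the ventral one (672, range 432 to 1508, 1261 with the block) and the interaction (11, range 6 to 100). Scores for lists of pathway genes were not run, as no ID had a name. RT1-Da and Cd68 rest on few counts, and depth limits the precision of their levels in controls.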

Other observations

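B2m was highest in the library numbered 2 in all 4 groups, at 324 CPM in dorsal controls, 309.7 in ventral controls, 355 in dorsal and 276 in ventral preconditioned libraries, with the next highest of each group at 284, 170, 286 and 231 CPM. Tyrobp and Aif1 were highest in the library numbered 2 in 3 of the 4 groups each, the exception in both being the dorsal controls, where library 4 was highest. Cd74 and RT1-Da were highest in the library numbered 2 in 0 of the 4 groups. Among preconditioned libraries, number 4 had the lowest Cd74 and RT1-Da in both regions. This pattern was noticed in the values and not tested, and the labels do not say what a number stands for.

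Cd74 and RT1-Da were high in dorsal control 4 (30.1 and 4.77 CPM), but not in ventral control 4 (2.07 and 0.577 CPM). Dorsal control 4 was not the highest dorsal control for C1qa (42.9 CPM) or C1qb (20.1 CPM).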
